A study of Rattus norvegicus with 288 samples.

Results

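The heart profile of 24 vehicle rats is described here, gene by gene, against the bone marrow and liver of the same animals. The members are the hearts of all rats that were given TEM_vehicle by vein and then, 30 min later, sterile water or F68/PG/PEG400 by mouth, and they are 24 of 288 arrays in the series. For each gene and rat, the value of the rule is the heart level minus the higher of the bone marrow and liver levels of that rat, so it is above 0 only where the heart exceeds both other tissues. The number of genes tested was 14218.

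The series holds 24 vehicle rats and 72 drug-treated rats, all male Sprague-Dawley animals of 7 to 8 weeks, and each rat gave 1 array of bone marrow, 1 of heart and 1 of liver. TEM_vehicle is the intravenous carrier of the drug temsirolimus, a mixture of ethanol, propylene glycol, a polysorbate and polyethylene glycol in saline, and no vehicle rat received a drug. F68/PG/PEG400 is an oral carrier made of Pluronic F68, propylene glycol and polyethylene glycol, and sterile water was the other oral carrier. In each oral vehicle, 4 rats were killed at 1 h, 4 at 6 h and 4 at 24 h, which gives 6 groups of 4 rats. All rats, controls included, carried an indwelling catheter in the femoral vein and had been given both an intravenous and an oral dose of fluid, so no untreated animal stands behind these values. The heart sample was the apex with both ventricles, the liver sample came from the left lateral and median lobes, and the marrow was flushed from the left femur. Levels are RMA values, that is, log2 of the background-corrected and quantile-normalized intensity of a probe set, and a difference of 1 is a doubling of intensity on that scale.

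Heart muscle contracts through sarcomeres, in which thick filaments of myosin pull on thin filaments of actin under the control of troponin and calcium. The calcium comes largely from the sarcoplasmic reticulum and is pumped back after each beat, and the ATP for both steps is made by densely packed mitochondria that burn mainly fatty acids and lactate. Beside the cardiac myocytes, which hold most of the volume, the ventricle contains many endothelial cells, fibroblasts, pericytes and macrophages. In a bulk sample the contribution of fewer cells of a type and of less RNA per cell cannot be told apart.

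Before the results, the samples were checked against their labels. The sarcomere lists had their highest level in the heart in all rats: the mean over the 11 measured genes of the thick filament list was 11.56 to 12.26 in the hearts, 4.98 to 5.36 in the bone marrow and 5.75 to 6.03 in the livers. Markers of hepatocytes were low in most hearts but not in all. The mean level of 19 such genes was 5.86 to 7.59 in the hearts, with a median of 6.09, against 14.31 to 14.47 in the livers, and 5 hearts lay above 6.5. In the same 5 hearts albumin (Alb) was above 9, and the highest, at 11.53, was in rat 1M7, a water rat at 1 h. Without these 5 rats, 1447 genes met the strongest criterion below, of which 1428 were among the 1438 found with all 24 rats. Erythroid markers were at 7.66 to 8.83 in the hearts and 12.55 to 12.87 in the marrow, and neutrophil markers at 5.97 to 6.55 in the hearts and 11.85 to 12.27 in the marrow. The names of the arrays fall into 3 series of numbers with 8 vehicle rats each, and all 3 tissues of a rat are in 1 series, so that each series gives the comparison on its own: 1454, 1460 and 1466 genes met the same criterion in the 3 series. All 5 hearts above 6.5 were in the series with 1460 genes. Without the 5 rats the difference of Tnnt2, the leading gene below, was 10.40 beside 10.39.

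The levels of different tissues may not be on exactly the same scale. The arrays of a tissue had nearly the same median, 6.88 to 6.93 in heart, 6.53 to 6.57 in bone marrow and 6.84 to 6.91 in liver, and whether the tissues were normalized together is not given in the sources used here. The 18 probe sets for hybridization controls, transcripts that are added in equal amount to each sample, had a mean of 11.34 ± 0.21 (SD, n = 24) in heart, 10.94 ± 0.11 in bone marrow and 11.28 ± 0.23 in liver. Differences well under 1 log2 unit between tissues therefore depend on the scaling, and the counts below are given under 3 other scalings.

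A promoter view of the genes that turned out furthest above both other tissues is given first, because these genes are the subject of what follows. The sequences are the 250 bases before the annotated start in RefSeq, build GRCr8, written 5′ to 3′ on the strand of the gene. Capitals mark matches, on either strand, to 6 motifs bound by factors with known roles in muscle or at the start of transcription: the MEF2 site, the CArG box of serum response factor, CATTCC (the motif of TEAD factors), CAGCTG (known as an E-box), AGATAA (which fits factors such as Gata4) and TATAAA (the box near many starts). The 6 genes with the largest difference that the table holds are shown, with Cox6a2 as the example of a mitochondrial isoform. The first is Tnnt2 at chr13:49818873-49819122 on the plus strand. Minus-strand windows follow for Myoz2 at chr2:213852779-213853028, Myh6 at chr15:32411698-32411947, Mb at chr7:110647743-110647992, Ckmt2 at chr2:24845512-24845761, Acta1 at chr19:68784195-68784444 and Cox6a2 at chr1:192219717-192219966.
Tnnt2: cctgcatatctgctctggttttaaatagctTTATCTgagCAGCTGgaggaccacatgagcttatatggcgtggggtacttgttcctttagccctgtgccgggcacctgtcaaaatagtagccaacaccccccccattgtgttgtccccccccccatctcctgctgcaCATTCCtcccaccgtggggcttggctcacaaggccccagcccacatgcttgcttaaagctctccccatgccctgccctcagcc
Myoz2: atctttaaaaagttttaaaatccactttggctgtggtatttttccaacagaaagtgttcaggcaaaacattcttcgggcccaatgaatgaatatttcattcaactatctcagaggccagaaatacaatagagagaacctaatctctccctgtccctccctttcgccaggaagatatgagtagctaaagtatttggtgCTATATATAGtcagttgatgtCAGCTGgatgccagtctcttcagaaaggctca
Myh6: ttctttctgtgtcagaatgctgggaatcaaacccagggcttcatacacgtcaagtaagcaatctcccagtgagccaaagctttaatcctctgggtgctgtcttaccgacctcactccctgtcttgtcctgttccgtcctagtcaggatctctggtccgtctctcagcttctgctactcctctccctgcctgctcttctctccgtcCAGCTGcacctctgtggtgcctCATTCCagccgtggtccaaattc
Mb: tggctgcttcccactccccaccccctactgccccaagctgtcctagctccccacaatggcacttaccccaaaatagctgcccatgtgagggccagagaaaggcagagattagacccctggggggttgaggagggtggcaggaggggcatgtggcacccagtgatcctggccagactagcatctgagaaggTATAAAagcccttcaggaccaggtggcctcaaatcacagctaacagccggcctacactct
Ckmt2: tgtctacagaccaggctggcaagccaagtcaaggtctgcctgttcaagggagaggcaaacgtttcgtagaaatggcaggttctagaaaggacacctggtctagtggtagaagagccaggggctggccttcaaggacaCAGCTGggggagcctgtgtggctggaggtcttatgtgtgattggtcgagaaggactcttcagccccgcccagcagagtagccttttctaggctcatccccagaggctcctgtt
Acta1: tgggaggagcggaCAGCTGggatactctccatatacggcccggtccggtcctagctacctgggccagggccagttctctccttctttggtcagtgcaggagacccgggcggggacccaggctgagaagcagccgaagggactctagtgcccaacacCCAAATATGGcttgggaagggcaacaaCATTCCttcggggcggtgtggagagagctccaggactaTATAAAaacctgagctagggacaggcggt
Cox6a2: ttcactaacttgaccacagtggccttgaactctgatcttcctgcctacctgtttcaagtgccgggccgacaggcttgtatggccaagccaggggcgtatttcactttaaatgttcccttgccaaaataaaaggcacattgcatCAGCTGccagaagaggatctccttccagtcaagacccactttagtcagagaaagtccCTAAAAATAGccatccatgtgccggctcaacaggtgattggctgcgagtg

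The Myoz2 window held a MEF2 site 53 to 44 bases before the start, and the Cox6a2 window held one 50 to 41 bases before it. Acta1, which encodes skeletal alpha-actin, carried a CArG box at 94 to 85 bases, CATTCC at 67 to 62 bases and TATAAA at 29 to 24 bases before the start. Tnnt2 carried CATTCC at 83 to 78 bases. Of the 14218 genes tested, 11734 had a promoter in the table, and where a gene had several starts the first listed was used. A MEF2 site was in 1.61% of these promoters, in 3.63% of the 1130 promoters of genes strongly above both tissues, in 12.7% of the 134 whose mean difference was at least 4, and in 17.8% of the 45 whose difference was at least 6. CATTCC followed the same order, with 10.4%, 13.5%, 23.9% and 31.1%, and so did CAGCTG, with 12.8%, 14.7%, 26.9% and 31.1%. CArG boxes were rarer, at 1.24%, 1.68%, 4.48% and 6.67%, the last being 3 of 45 promoters. AGATAA was in 6.62%, 7.61%, 12.7% and 17.8%, and TATAAA in 8.07%, 8.14%, 14.9% and 22.2%. Over all 27457 promoters of the table the shares were 3.07% for the MEF2 site, 1.501% for the CArG box, 11.8% for CATTCC, 11.9% for CAGCTG, 10.0% for AGATAA and 13.1% for TATAAA. In the 68 promoters of respiratory chain and ATP synthase genes, the MEF2 site was found in 1, that of Cox6a2 shown above, and CATTCC in 5. MEF2 and TATAAA matches can overlap, and CAGCTG, the CArG box and many MEF2 matches read the same on both strands. A match is a run of letters in a short window, and binding was not measured.

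The heart was above both other tissues in 4136 of 14218 genes, 29.1% of those tested, at an adjusted p under 0.05 in limma with the mean of the 6 groups set against 0. It was below both in 3378 genes, 23.8%. The remaining genes lay between the tissues or did not pass. For genes below both, the values printed further on are still heart minus the higher tissue. The gap to the lower tissue is smaller. By the mean alone, the highest level was in liver for 5646 genes, in heart for 4683 and in bone marrow for 3889. The balance of the calls moved with the scaling. Under the 3 other scalings, in the order of the next sentence, 4015, 3421 and 2959 genes were above both (28.2%, 24.1% and 20.8%). Below both were 4150, 4740 and 4309 (29.2%, 33.3% and 30.3%). Of the genes called in either direction 55.04% were above both as deposited, 49.2% after quantile normalization of the 72 arrays together, 41.9% after subtraction of each array's median and 40.7% after subtraction of the hybridization control level, which was added after the data were seen. The median gene shifted by -0.05, -0.10 and -0.17 under these 3 scalings.

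A stricter set was defined as genes above both with a mean difference of at least 1 and a positive difference in all 24 rats, and 1438 genes, 10.1% of those tested, met it. They are called strongly above both here. Of them 624 differed by at least 2, 174 by at least 4, 59 by at least 6 and 18 by at least 8. The higher of the other tissues was liver in 1010 genes and bone marrow in 428. In 1404 of the 1438 genes even the lowest of the 24 hearts was above the highest marrow and the highest liver of any rat. The largest adjusted p among the 1438 genes was 1.03e-09 (limma). Under the 3 scalings above 1507, 1271 and 1209 genes met the same criterion, and 1375, 1271 and 1209 of them were among the 1438. Just inside the limit lay Kctd10, Trim45 and Septin4, with means of 1.0004, 1.0029 and 1.0033, and just outside it lay Ptprb, Tfpi2 and She, with 0.9995, 0.9994 and 0.9994.

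The genes furthest above both other tissues were those of the contractile apparatus, its calcium store and its energy supply. Tnnt2, cardiac troponin T, which anchors the troponin complex to tropomyosin, had the largest difference on the probe sets used. The level of Tnnt2 was 14.53 to 14.70 (median 14.61) in the 24 hearts, 3.31 to 3.81 (median 3.59) in the marrow and 4.01 to 4.90 (median 4.15) in the livers, and the difference was 10.39 ± 0.04 (SE, n = 24; adjusted p = 8.41e-39, limma). The tissues were separated by an empty range of more than 9 log2 units on this probe set. The other probe set of Tnnt2 had means of 6.11 in heart, 4.00 in marrow and 4.73 in liver, a difference of 1.38. With the mean over all probe sets of a gene Tnnt2 was at 5.88, behind Myoz2 at 9.89 and Myh6 at 8.85. Myoz2, which ties calcineurin to the Z disc, was at 14.17 to 14.38 in heart against at most 4.72 in marrow and 4.52 in liver, with a difference of 9.89 ± 0.03. Myh6, the fast alpha myosin heavy chain that dominates in the adult rat ventricle, was at 14.69 to 14.90 in heart and at most 4.5001 and 6.01 in marrow and liver, with a difference of 9.88 ± 0.05. The mean heart level of Myh6, 14.77, was above that of Tnnt2, 14.61. The order of the largest differences thus also depends on how low the probe sets read in marrow and liver, where levels may be near background. Myoglobin (Mb), the oxygen store of muscle, was at 14.65 to 14.75 in heart and at most 5.46 and 4.93 elsewhere, with a difference of 9.67 ± 0.03. The promoter of Mb above holds TATAAA 60 to 55 bases before the start.

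**Figure D1:**
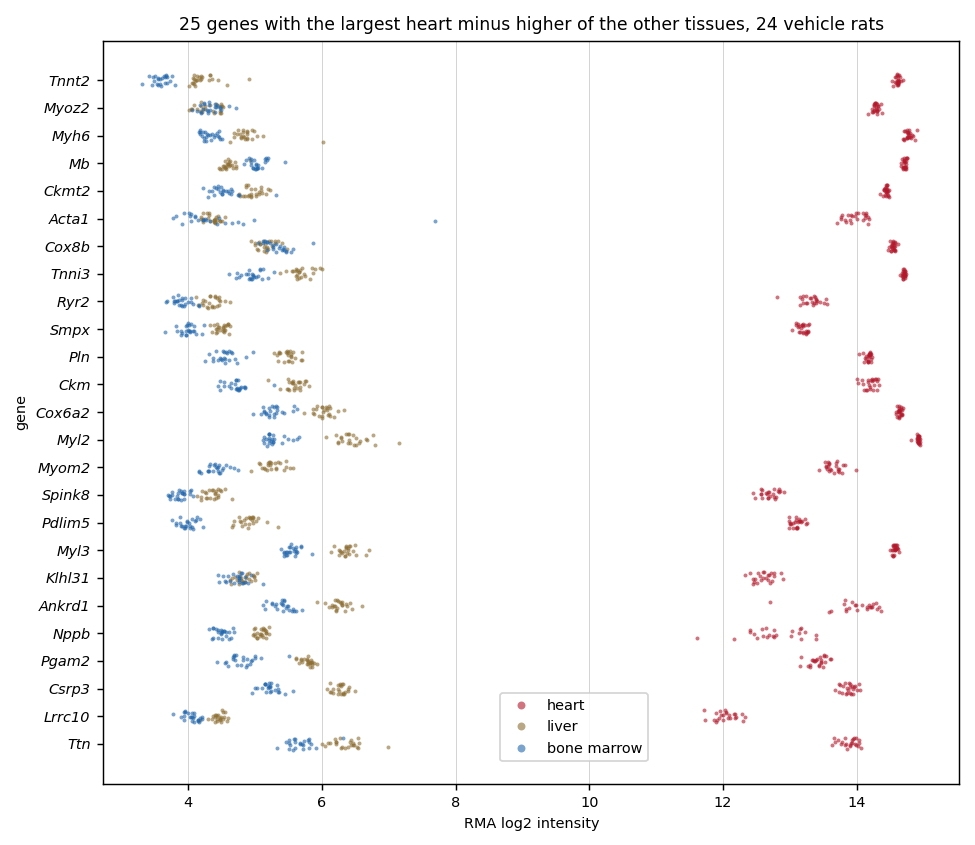
RMA log2 levels (horizontal axis) of the 25 genes with the largest heart minus higher value (vertical axis, largest at the top), with 1 point per rat for heart, liver and bone marrow of the 24 vehicle rats. The heart points of each gene stand apart from all points of the other tissues, and 1 marrow point of Acta1 lies at 7.70.

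The 25 genes with the largest difference spanned 7.52 (Ttn) to 10.39 (Tnnt2), with standard errors of 0.02 to 0.11 and adjusted p of at most 6.89e-29 (limma). The least separated single rat in this group still had a difference of 6.39. That value belonged to Ankrd1, a stretch-responsive gene. In Acta1 the lowest single difference was 6.43, where the marrow of rat 2M13 was at 7.70 and the next highest marrow at 4.99, and the mean difference of Acta1 was 9.39 ± 0.11. Acta1 is closely similar to the cardiac actin gene, which is not listed under the annotation used here, so the level of Acta1 is uncertain. Of the 25 genes, 2 were in none of the lists described below. Spink8, a gene of a family of secreted protease inhibitors, was at 12.44 to 12.91 in heart and at most 4.07 and 4.65 in marrow and liver, and Lrrc10, a leucine-rich repeat protein of heart muscle, was at 11.71 to 12.32 against at most 4.21 and 4.59.

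**Figure D2:**
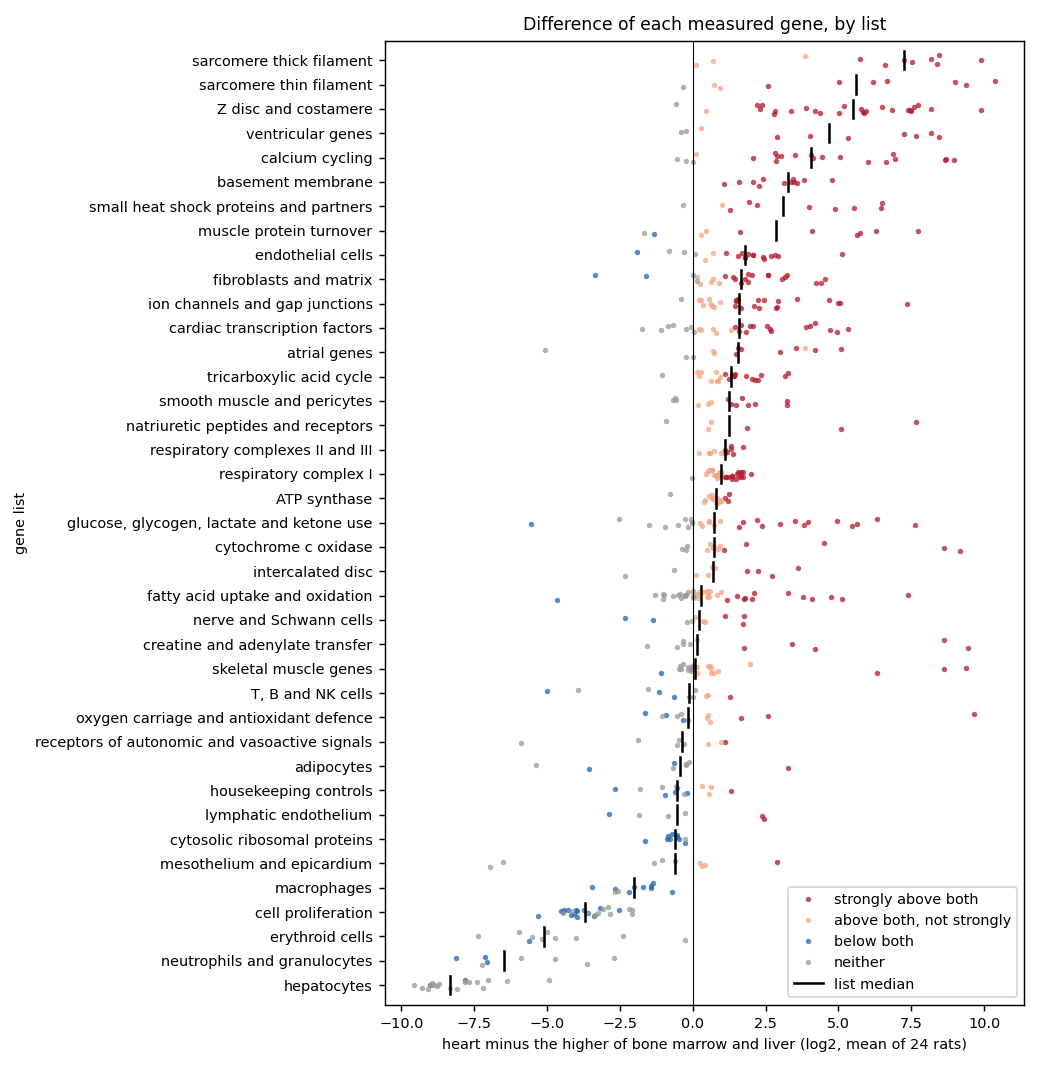
Heart minus the higher of bone marrow and liver (horizontal axis, log2, mean of 24 rats) for each measured gene of 39 lists (vertical axis, ordered by list median), with 1 point per gene coloured by its call and a black bar at the list median. The sarcomere, Z disc, ventricular and calcium lists lie furthest to the right, and the hepatocyte, neutrophil, erythroid and proliferation lists furthest to the left.

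Genes of the thick filament were above both in 11 of 11 cases, 8 of them strongly, with a median difference of 7.25, against a median of -0.36 over all genes. The ventricular light chains Myl2 and Myl3 were 8.45 ± 0.04 and 8.19 ± 0.03 above the higher other tissue, the giant spring protein titin (Ttn) 7.52 ± 0.05, and the slow beta myosin heavy chain Myh7 7.25 ± 0.09. Myh7 varied more between hearts than Myh6, with levels of 10.99 to 12.83. The starts of both heavy chain genes lie 26.5 kb apart on chromosome 15 in GRCr8. The M-band proteins Myom2 and Myom1 were 8.39 and 6.60 above, and cardiac myosin binding protein C (Mybpc3) 5.76 above.

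The 3 genes of this list that were not strongly above were Myl7, Myl4 and Mybphl, and the atrial light chain Myl7 stood out by its spread between hearts. The level of Myl7 ran from 4.71 to 13.24 over the 24 hearts, with a median of 9.34, while the marrow stayed between 4.07 and 4.69 and the liver between 5.15 and 5.73. The mean difference of Myl7 was 3.87 ± 0.46 and the heart was highest in 23 of 24 rats, so it was not called strongly above. In 4 hearts Myl7 was above 12 and in 4 it was under 7. Of the 13 measured genes of the atrial list, Myl7 included, 10 were above both and 7 strongly, with a median of 1.56. Nppa, Myl4 and sarcolipin (Sln) did not span such a range as Myl7. Nppa, which encodes atrial natriuretic peptide, was at 11.08 to 12.93 in the hearts. The atrial light chain Myl4 was at 6.61 to 7.28, with a mean difference of 0.69. Sln, which restrains the calcium pump in the atrium, was at 5.61 to 7.69, with a mean difference of -0.00. Mybphl, a relative of myosin binding protein H, had a mean difference of 0.11 (-0.02 with the hybridization controls subtracted). The amount of atrial tissue in each sample was not measured.

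Of 10 thin filament genes 9 were above both and 7 strongly, with a median of 5.60. Cardiac troponin I (Tnni3) was 9.01 ± 0.03 above, slow troponin C (Tnnc1), which the heart shares with slow muscle, 6.18, and tropomyosin 1 (Tpm1) 5.02. The value of Tpm1 depended on the probe set, since its 7 probe sets ran from -1.31 to 8.67. The lowest of them had means of 9.04 in heart, 10.1 in marrow and 10.3 in liver. Leiomodin 2 (Lmod2), which lengthens thin filaments, was 6.67 above. The troponin I of slow skeletal and fetal muscle (Tnni1) was 0.72 above and nebulin (Neb), the ruler of skeletal thin filaments, was -0.34 and not called above.

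The Z disc and costamere list, the anchors of the sarcomere and of the cell membrane, had 25 of 26 genes above both and 24 strongly, with a median of 5.49. Behind Myoz2 came Pdlim5 with 8.19, Ankrd1 with 7.73 ± 0.07, the LIM protein Csrp3 with 7.60, nexilin (Nexn) with 7.50, alpha-actinin 2 (Actn2) with 7.47 and telethonin (Tcap) with 7.39. Ankrd1 ranged from 12.70 to 14.36 among the hearts. At the lower end vinculin (Vcl), which is used by many cell types, was 0.47 above, and dystrophin (Dmd), highest in liver on the probe set used, was at -0.57.

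Calcium handling genes were above both in 18 of 21 cases and strongly in 17, with a median of 4.07. The release channel Ryr2 was at 12.80 to 13.56 in heart and at most 4.17 and 4.63 in marrow and liver, with a difference of 8.95 ± 0.04. Smpx, a small protein of striated muscle, was 8.69 ± 0.02 above. Phospholamban (Pln), the brake on the calcium pump, was 8.67 ± 0.03 above, the calcium buffers Casq2 and Hrc 6.94 and 6.87, triadin (Trdn) 6.62 and the L-type channel subunit Cacna1c 5.05 ± 0.05.
The pump gene itself, Atp2a2, was at -0.23 ± 0.03 and not above both, and this depended on the probe set and on the scaling, with 0.22 after quantile normalization of the 72 arrays together. The probe set used for Atp2a2 had mean levels of 11.6 in heart, 11.1 in marrow and 11.8 in liver, whereas another of its 5 probe sets had 14.6, 8.78 and 10.3, a difference of 4.34. The remaining 3 of Atp2a2 differed by 0.82, 0.59 and 0.03. The transcript form that each probe set reads was not checked here.

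Ion channels and gap junction genes were above both in 25 of 26 cases and strongly in 17, with a median of 1.61. Kcnip2, the accessory subunit of the transient outward potassium current, led with 7.36 ± 0.04, followed by the sodium channel subunit Scn4b with 5.04, the ATP-sensitive potassium channel Kcnj11 with 5.00, the membrane protein Popdc2 with 4.68 and Kcnq1 with 3.58. Connexin 43 (Gja1), the main ventricular gap junction protein, was high in all tissues, at 13.85 to 14.29 in heart and 10.62 to 11.80 in marrow, and differed by 2.90 ± 0.05. The pacemaker channel Hcn2, chosen after its value was seen, was 0.55 above. Hcn4 was 0.23 above as deposited, but turned to -0.01, -0.03 and -0.09 under the 3 other scalings. The inward rectifier Kcnj2 was at -0.41.
Intercalated disc genes, which join the ends of myocytes, were above both in 8 of 10 cases and strongly in 4 (Lmo7, 3.60; desmoplakin, Dsp, 2.73; plakophilin 2, Pkp2, 2.23; alpha-catenin, Ctnna1, 1.88). The desmosomal cadherins Dsg2 and Dsc2 were highest in liver, at -0.63 and -2.33. N-cadherin (Cdh2) was 0.13 above, with means of 11.1 in heart and 10.99 in liver, but stood at -0.02 in 1 of the 3 array series taken alone.

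Transcription factors known from heart development were above both in 20 of 27 cases and strongly in 15. The ventricular factor Irx4 was at 9.96 to 10.49 in heart and at most 4.66 and 5.12 elsewhere, with a difference of 5.34 ± 0.04. Perm1 and Ppargc1a, both coactivators of mitochondrial genes, were 4.95 and 2.65 above. Nkx2-5 was 4.72 ± 0.03 above, Tbx5 4.19 ± 0.06, Hey2 4.01 and Myocd, the partner of serum response factor, 3.87. At the other end Hopx was highest in marrow (-1.73), and Prox1 and Zfpm2 were highest in liver (-0.85 and -1.09). The call of Zfpm2 depended on the probe set, since its other probe sets differed by 1.57 and 0.16 and their mean by 0.21. The level of Hopx was 9.86 to 10.88 in the hearts and 11.95 to 12.45 in the marrow.

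The natriuretic peptides Nppa and Nppb, hormones of stretched heart muscle, were 5.08 ± 0.09 and 7.68 ± 0.07 above both tissues. Nppb ranged from 11.60 to 13.39 over the hearts. Their starts lie 12.2 kb apart on chromosome 5 in GRCr8. Of their receptors Npr2 was 1.85 above, Npr3 0.64 and Npr1 0.53. Receptors for autonomic and vasoactive signals were mostly dim, and 3 of 8 were above both, the beta-1 adrenoceptor Adrb1 with 1.11 ± 0.04 (heart level 6.14 to 6.94), the muscarinic receptor Chrm2 with 0.98 and the alpha-1A adrenoceptor Adra1a with 0.53. The angiotensin receptor Agtr1a was at 5.89 to 6.86 in heart and 11.82 to 12.52 in liver.

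Energy genes split into a few very large differences and many small ones. The mitochondrial and cytosolic creatine kinases of muscle, Ckmt2 and Ckm, which pass high-energy phosphate from mitochondria to myofibrils, were 9.45 ± 0.03 and 8.61 ± 0.04 above, the creatine transporter Slc6a8 4.21 and the adenine nucleotide carrier Slc25a4 3.41 ± 0.07. Of 40 genes for fatty acid uptake and oxidation 24 were above both and 12 strongly, with a median of 0.29. The cytosolic carrier Fabp3 was at 14.55 to 14.64 in heart and 6.75 to 7.47 in liver, with a difference of 7.37 ± 0.03. Cpt1b, the muscle form of the enzyme that gates fatty acid entry into mitochondria, was 5.12 ± 0.04 above, lipoprotein lipase (Lpl) 4.75 ± 0.07, Acsl6 4.11 and the droplet protein Plin5 3.78. Several enzymes of mitochondrial beta-oxidation, named after their values were seen, were near the liver level. Acadm differed by 0.06, Etfa by 0.00, Hadh by -0.25 and Acaa2 by -0.25 (both 0.14 after quantile normalization of the 72 arrays together), and the means of Acadm were 13.7 in heart, 13.6 in liver and 10.3 in marrow. Quantile normalization of the 72 arrays together raised the number of genes of this list above both from 24 to 32, and subtraction of the hybridization controls lowered it to 19.

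Tricarboxylic acid cycle genes were above both in 21 of 22 cases, 13 of them strongly, with a median of 1.31. Idh3a and Idh2, both isocitrate dehydrogenases, were 3.26 ± 0.03 and 3.18 ± 0.03 above, oxoglutarate dehydrogenase (Ogdh) 2.33 and citrate synthase (Cs) 1.82. The GTP-linked succinyl-CoA ligase subunit Suclg2 was highest in liver, at -1.04.
Complex I genes were above both in 33 of 34 cases with a narrow spread, from -0.01 for Ndufc1 (0.45 after quantile normalization) to 1.99 for Ndufa5, and a median of 0.97. Strongly above were 15 of the 34 as deposited and 30 after quantile normalization of the 72 arrays together. All 12 genes of complexes II and III were above both, from 0.22 to 1.74, and so were 14 of 15 ATP synthase genes, from 0.40 for Atp5pb to 1.24 for Atp5mk. The exception, the inhibitor Atp5if1, was highest in marrow on the probe set used, at -0.76 ± 0.04, but its other probe sets were at 0.78 and -1.68, and with the mean of its probe sets it was at 0.26. Of the ATP synthase genes 3 were strongly above as deposited and 10 after quantile normalization.
Cytochrome c oxidase showed both patterns. The muscle subunits Cox8b, Cox6a2 and Cox7a1 were 9.18 ± 0.03, 8.61 ± 0.03 and 4.5 above both tissues, the lung form Cox4i2 was 1.82 above, widely used subunits were between 0.50 (Cox7b) and 1.08 (Cox6b1), and Cox6a1 and Cox8a, the forms used outside muscle, were at -0.22 (0.13 after quantile normalization) and -0.37. In this list 5 of 15 genes were strongly above as deposited and 9 after quantile normalization. Glucose, glycogen and ketone genes were above both in 19 of 29 cases, led by Pgam2 (7.63), Eno3 (6.33), Ppp1r3a (5.64), the muscle phosphorylase Pygm (5.45) and Ldhb (4.97), and Oxct1, which activates ketone bodies, was 3.52 above.

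Isoform pairs put this side by side. In 19 pairs with both genes measured, the heart or muscle form had the larger difference in all 19, and 16 of the heart forms were strongly above both tissues. Of the forms of other tissues 1 was strongly above (Ckb, 1.76), 1 more was above (Ckmt1, 0.16 as deposited, but -0.03 after quantile normalization and -0.02 with the hybridization controls subtracted) and 3 were below both. The median difference was 5.12 for the heart forms and -0.88 for their partners, beside -0.36 over all genes. The widest gaps were those of Fabp3 with 7.37 against -9.25 for the liver form Fabp1, of the glucose transporter Slc2a4 with 3.01 against -8.61 for Slc2a2, and of Pygm with 5.45 against -6.08 for Pygl. The pairs were chosen because 1 member is known from heart or muscle, so the order within pairs is no independent result. Levels of different probe sets were not compared.

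**Figure D3:**
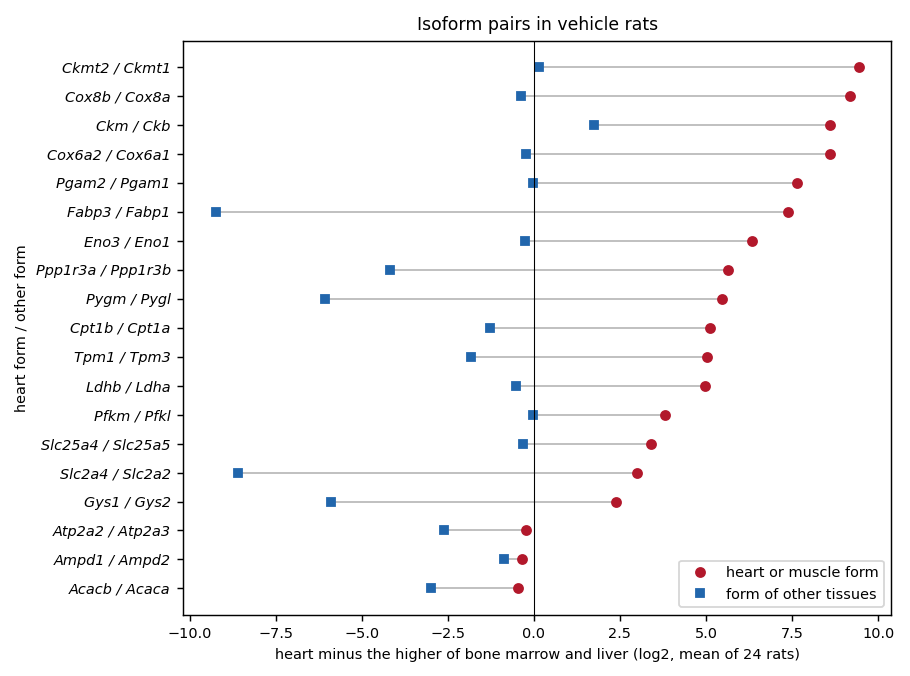
Heart minus the higher of bone marrow and liver (horizontal axis, log2, mean of 24 rats) for 19 isoform pairs (vertical axis), with a circle for the heart or muscle form and a square for the form of other tissues. The circle lies to the right of the square in all 19 pairs, and 3 circles (Acacb, Ampd1, and Atp2a2, which was at 0.22 after quantile normalization of the 72 arrays) lie below 0.

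Small heat shock proteins and their partners, which keep stretched proteins folded, were above both in 9 of 10 cases and strongly in 8. Cryab was at 14.42 to 14.58 in heart and at most 6.24 and 8.40 elsewhere, with a difference of 6.49 ± 0.03, and Hspb6, Hspb3 and Hspb2 were 6.45, 5.52 and 4.88 above. Hspb7 was 1.00 above and exceeded both tissues in 23 of 24 rats on the probe set used. The other probe set of Hspb7 had means of 13.5 in heart, 6.11 in marrow and 6.54 in liver, and with the mean of both probe sets the difference was 4.00. Of the muscle protein turnover genes the Kelch proteins Klhl31 and Klhl38 were 7.74 and 4.11 above and the ubiquitin ligases Trim63 and Trim54 6.29 and 5.74. Of 13 measured genes of the list for oxygen storage and antioxidants 6 were above both and 3 strongly, Mb (9.67), the globin Cygb and the secreted peroxidase Gpx3 (1.65). Cat, Gpx1 and Prdx5, which break down peroxides, were below both tissues, Cat with heart levels of 12.08 to 12.59 and liver levels of 13.88 to 14.04.

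Genes of the basement membrane and markers of cells other than myocytes formed a further group. Which cells the basement membrane transcripts came from was not measured. All 12 basement membrane genes were strongly above both, from 1.07 for Nid2 to 4.78 for the laminin chain Lamb2, with a median of 3.26. Lamb2 was at 11.47 to 12.34 in heart, 4.73 to 5.59 in marrow and 6.90 to 7.28 in liver, and Lama2, the laminin chain of muscle, was 3.47 ± 0.03 above. Endothelial markers were above both in 16 of 20 cases and strongly in 14, led by caveolin 1 (Cav1, 5.12), Cldn5 (2.94), Sox18 (2.84) and Ecscr (2.68). Vwf was level with the marrow, at 0.09 ± 0.10 (adjusted p = 0.40, limma). Plvap, which forms the diaphragms of fenestrated vessels, was below both, at -1.91 ± 0.08 against the higher of them. Of 25 fibroblast and matrix genes 21 were above both and 16 strongly, with Col15a1 at 4.52, decorin (Dcn) at 4.40, Sparcl1 at 4.24 and Mgp at 3.25. Fibronectin (Fn1) was below both, at 9.88 to 11.20 in heart and 13.73 to 14.17 in liver. Of 14 smooth muscle and pericyte genes 8 were strongly above, among them Mcam and Rgs5 with 3.25 and 3.23.

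Markers of macrophages and of dividing cells were on the other side. All 11 macrophage genes were lower in the heart than in the higher of the other tissues and 9 were below both, with a median of -2.01. The mean level of this list was lower in every heart (8.57 to 9.36) than in every marrow (10.10 to 10.46) and every liver (9.79 to 10.95). Lymphocyte genes were divided: of 11 measured markers of T, B and NK cells 3 were above both, 1 of them strongly (Klrb1a, a receptor of NK cells, 1.28), and 3 were below both, with a median of -0.11. None of the 26 proliferation genes was above both and 15 were below both. Against the higher tissue the 26 ranged from -2.08 (Mcm6, which was not below both) to -5.29 (Ccna2). Of 10 ribosomal protein genes 9 were below both. Against the higher tissue the 10 ranged from -0.26 to -1.63 (Rpl3, with means of 12.4 in heart, 14.1 in marrow and 13.4 in liver). Of 24 genes of skeletal muscle 12 were above both, with a median of 0.09, and 3 were strongly above, Acta1, Ckm and Eno3, each of which is also in a list above. Of 8 adipocyte markers 1 was above both, strongly (Fabp4, a fatty acid carrier also found in endothelium, 3.28), and 2 were below both, with a median of -0.44, and Adipoq, Lep and Plin1 were at -0.21, -0.14 and -0.23. Of 9 mesothelial and epicardial markers 4 were above both and 1 strongly, with a median of -0.62 and a lowest value of -6.97 (Krt18, also a keratin of hepatocytes). The 1 strongly above was Wt1, at 2.89 ± 0.04, with heart levels of 8.68 to 9.11.

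Among housekeeping genes Gapdh was 0.55 above and Sdha 1.32 above. Gusb was below both, at -2.66 against the higher of them, and Tbp at -0.20. Of 13 such genes 4 were above both and 5 below both.

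Most genes of the set were in no list. Of the 1438 genes, 243 were in a list and 1195 were not. After Spink8 and Lrrc10 the largest differences among the latter, named after their values were seen, were those of Dhrs7c (7.50 ± 0.03), an enzyme-like protein of the sarcoplasmic reticulum, of Mlip (7.47 ± 0.04), which binds lamins, of Mylk3 (7.34 ± 0.06), the cardiac myosin light chain kinase, and of Txlnb (7.23 ± 0.03). Among families of genes that share the letters before the first digit of the symbol, and have at least 8 measured members, the largest shares strongly above both were in the anoctamins (Ano, 5 of 9), the genes whose symbols start with Rtn (4 of 8, mostly reticulons), the Ndufb subunits (5 of 11) and the Asb ubiquitin ligase adaptors (5 of 12). Kelch-like genes (Klhl) had 10 of 34 members there and collagens (Col) 13 of 41. These families were picked after their shares were seen, and the share over all genes was 10.1%.

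Probe sets of a gene did not always give the same sign. Of the 1438 genes 36.6% had more than 1 probe set. Of these, 217 genes (41.3%) had all probe sets at least 1 above, and 132 genes (25.1%) had at least 1 probe set below 0. Pdlim5, Klhl31, Kcnip2, Ldb3 and Synpo2 are examples of the latter. For Pdlim5 the probe set used had 8.19 and the other 3 had 0.00, -0.31 and -0.92, each with a heart level under 7. Klhl31 had 7.74 and -0.58, and Kcnip2 had 7.36, 4.51 and -0.35. The low probe sets of these 3 genes had heart means under 7. In Tpm1, also of the set, the lowest probe set was not dim, with -1.31 and a heart mean of 9.04.

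Over the 1438 genes, the median SD of the difference over rats was 0.23 and the highest 0.96, that of Ano5, a membrane protein of muscle with heart levels of 7.24 to 9.89. The hearts themselves had a median SD of 0.17 in this set and 0.14 over all genes. By the SD of the heart level the most variable genes of the set were Sgcb and Slc3a1. Sgcb, a sarcoglycan of the muscle membrane, was at 8.22 and 8.43 in rats 2M14 and 2M16 and at 10.39 to 11.73 in the other 22 hearts. Slc3a1, a subunit of an amino acid transporter, was at 7.58 to 10.61, and Vsnl1, a calcium sensor, at 4.46 to 7.27. These genes were picked after their spread was seen.

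Rats that the rule did not use carried the same order. In the 72 rats given temsirolimus, sunitinib or sorafenib, alone or as a pair with temsirolimus, 4256 genes were above both (29.9%) and 1319 strongly so (9.28%). All 1438 genes of the vehicle set were above both there and 1368 by at least 1. The median difference was 1.78, beside 1.83 in the vehicle rats that chose the genes, and the median absolute difference between both sets of rats was 0.07. The largest absolute difference, 0.74, was that of Acta1. Hepatocyte markers were raised in more of these hearts: 20 of 72 were above every vehicle heart. The highest, that of rat 6M68 at 13.8, was near the 14.31 to 14.47 of the vehicle livers, against a median of 6.15 in the 72 hearts. The counts above include this rat. Both sets of rats came from 1 study, array type and normalization. In 1326 genes the heart was highest in all 72 rats. It was highest in 1372 genes in all 68 rats left without 4M45, 4M48, 7M78 and 6M68. The paper names arrays of 4M45 and 4M48 as potential outliers and does not name 7M78 or 6M68. In 1360 genes the heart was highest in all 52 rats left without the 20 above every vehicle heart in hepatocyte markers.

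**Figure D4:**
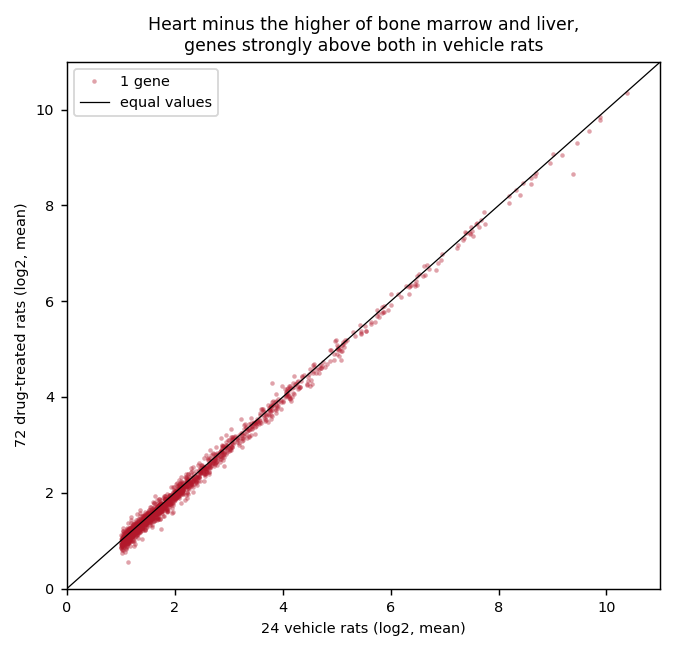
Mean heart minus the higher of bone marrow and liver (log2) of the 1438 genes strongly above both in vehicle rats, with the 24 vehicle rats on the horizontal axis and the 72 drug-treated rats on the vertical axis, 1 point per gene and a line of equal values. All points lie above 0 on the vertical axis, and the point furthest from the line differs by 0.74.

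Few of these genes passed for the study's own conditions, but for hours their share was above that over all genes. For the oral vehicle, F68/PG/PEG400 against sterile water with 12 hearts each, 0 of 14218 genes passed in limma (0%), with 1329 genes at an unadjusted p under 0.05. Among the 1438 genes the median absolute difference was 0.05, the largest 0.59, and the lowest adjusted p 0.21 (limma). That no gene passed does not show that the oral vehicle had no effect. For hours after dosing, 273 genes passed the F test (1.92%), 81 of them in the set (5.63%). The set was brighter in the heart, with a median level of 9.65 against 7.91 over all genes, and the shares were not compared at equal level. Of the 81 genes, 31 were highest at 1 h, 22 at 6 h and 28 at 24 h. The median span between the 3 means was 0.43, with 5 genes spanning at least 1. Of the 5 hearts above 6.5 in hepatocyte markers 4 were 1 h hearts, and 348 genes passed with the hepatocyte level of the heart as a covariate and 285 without the 5 rats. No array series held hearts of every hour, so hours and series partly coincide, and 202 genes passed with the series as a term.

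The largest F values belonged to clock-linked repressors and a sarcomere gene. Bhlhe41, a repressor in the circadian clock, was at 8.17 to 8.76 at 1 h, 9.29 to 10.43 at 6 h and 8.64 to 9.08 at 24 h (8 hearts each; adjusted p = 4.17e-10, limma), so the 6 h hearts did not overlap with the others. Nr1d2, another clock repressor, was at 9.01 to 9.69, 10.15 to 10.73 and 8.12 to 8.85 (adjusted p = 4.17e-10, limma). Telethonin (Tcap) was at 12.93 to 13.50, 13.66 to 14.06 and 12.77 to 13.22 (adjusted p = 1.89e-08, limma), again highest at 6 h. Usp2, a deubiquitinase with a clock-driven rhythm, was also highest at 6 h, with means of 9.28, 9.71 and 9.15. Hours after dosing and the hour of the day cannot be told apart in this design. Ccn2, a matrix-linked growth factor of stressed heart, was highest at 1 h, at 10.996 to 12.07, with 9.89 to 10.66 at 6 h and 10.02 to 11.49 at 24 h, and the metalloproteinase inhibitor Timp4 had means of 8.996, 8.21 and 8.27. Mast4, a kinase, was lowest at 6 h, and Pacsin2, a membrane-bending protein, was highest at 24 h, at 12.14 to 12.31 against at most 12.02 at 1 h. Of the 11 thick filament and 10 thin filament genes none passed, and of the respiratory chain and ATP synthase genes none did, at a background of 1.92%. Tcap was 1 of 2 called genes of the Z disc list.

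**Figure D5:**
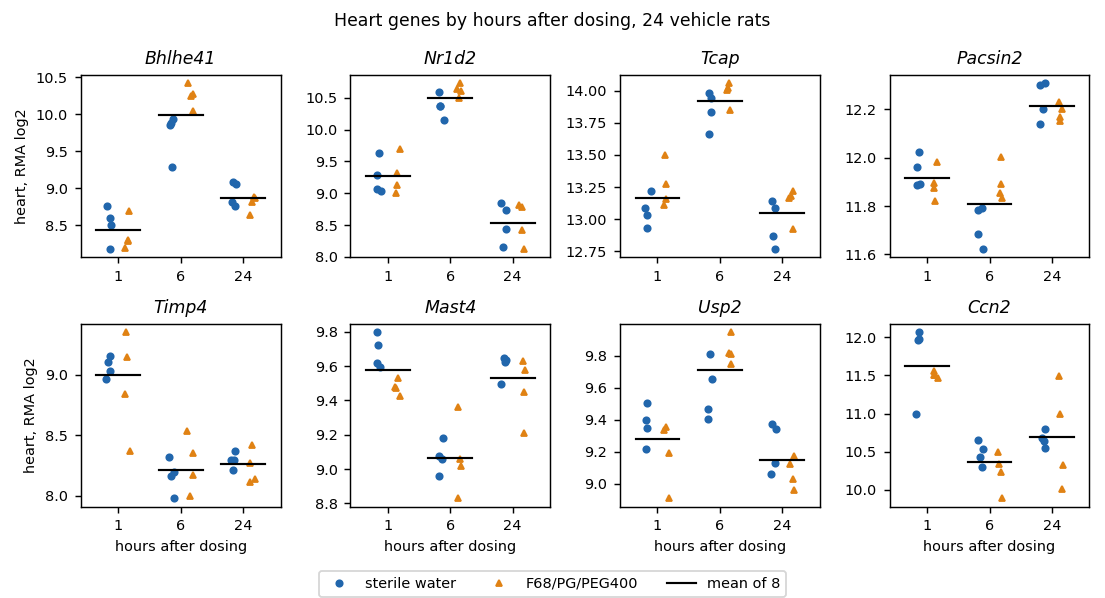
Heart levels (vertical axis, RMA log2, a separate range per panel) of the 8 genes strongly above both tissues with the largest F for hours after dosing (horizontal axis), with 1 point per heart by oral vehicle and a bar at the mean of 8 hearts. Bhlhe41, Nr1d2, Tcap and Usp2 have their highest mean at 6 h, Ccn2 and Timp4 at 1 h, and Pacsin2 at 24 h.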

How the data were processed

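RNA of bone marrow, heart and liver was hybridized by the authors to Affymetrix rat whole-genome GeneChip arrays, 1 array per rat and tissue, and the deposited values are log2 RMA levels of 31099 probe sets. The RMA version, and whether the tissues were normalized together, are not given in the sources used here. Of the probe sets, 20832 had 1 gene symbol in the platform annotation, 436 had several and 9831 were not listed, and only the first kind was used. A gene was represented by its probe set with the highest mean, which gave 14218 genes.

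The value of a rat was its heart level minus the higher of its bone marrow and liver levels. It was fitted in limma 3.58.1 (R 4.3.3) with the 6 groups of vehicle and hour as means, their average was tested against 0, and p-values were adjusted by the Benjamini-Hochberg method over all 14218 genes at 0.05. Genes below both were tested in the same way on the heart minus the lower tissue. Hours after dosing (F test) and oral vehicle were fitted on the 24 hearts, and the tissue comparison was repeated on the 72 drug-treated rats. The code in the array titles ties the 3 tissues to a rat. The deviations of hearts from their group means correlated with those of the same rat by a median of 0.10 in bone marrow (over 0.1 in 12 of 24 rats) and 0.16 in liver (20 of 24), and by -0.04 and -0.07 with other rats. The number of arrays limits the precision, and p-values set the mean difference against the spread between rats within groups.

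The rats, gene lists, isoform pairs and limits were chosen with earlier results of these data known. Named genes were the 25 with the largest difference, up to 8 highest and 4 lowest members of each list, both genes of each pair, the 8 with the largest F for hours, the 3 on each side of a mean of 1, up to 5 with probe sets of opposite sign, and housekeeping genes. Others are named as chosen after their values were seen. Fits were run on simulated data, with noise drawn independently for each tissue and unchanged genes placed below the higher tissue. Such data cannot show how often a gene level with the higher tissue is called above both. Alternatives were other scalings, probe-set means, a filter on dim genes, array series, single hours or vehicles, and leaving out rats. Subtraction of the hybridization controls and leaving out hearts with hepatocyte markers were chosen after seeing the data. Promoters were taken from RefSeq, GRCr8.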

Additional observations from a re-analysis of the deposited data

Results flagged for a closer look

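In 66 groups of 4 or 8 hearts checked for a sample far from the others, 4 had one, and chance flags about 1 in 20 groups. Among the water rats at 24 h, the mean hepatocyte marker level of the heart was 7.2452 in rat 1M5 and 5.97 to 6.18 in the other 3. Among the same rats the erythroid marker level was 8.8327 in rat 1M12 and 8.01 to 8.09 in the other 3. The skeletal muscle list was lowest in rat 2M22 of the F68/PG/PEG400 rats at 6 h, at 6.9222 against 6.98 to 6.99. Among the 8 hearts at 24 h, Mast4 was lowest in rat 2M18, at 9.2111 against 9.45 to 9.64.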

How the results depend on the processing

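Counts of genes above both, below both and strongly above both stayed within 1.5 times the values given under all alternatives but 1. Tested in limma against a log2 difference of 1 instead of 0, 1341 genes were above both and 472 below both. Leaving out 1 rat at a time gave 4121 to 4155 genes above both, 3337 to 3390 below both and 1435 to 1447 strongly above both. The rat code pairs the tissues, and without the pairing (no replicate block, tissues as independent arrays) 4166 genes were above both, 1445 strongly and 3366 below both, so that no count moved by over 1.5 times. For oral vehicle, where 0 genes passed, 1 gene passed after quantile normalization of the heart arrays again, 1 with a filter on dim genes and 1 with the hepatocyte marker level as a covariate, and 0 to 2 passed when 1 rat was left out. For hours after dosing, leaving out 1 rat gave 185 to 385 genes beside 273. With the array series as a term, which partly coincides with the hours, 202 genes passed.

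Some named genes changed sign, and the cause was not tested. Among those called above both, Hcn4 was at -0.0108 after quantile normalization of the 72 arrays, -0.0289 with array medians subtracted and -0.0851 with hybridization controls subtracted. Ckmt1 was at -0.0318 after quantile normalization and -0.0173 with hybridization controls subtracted. Mybphl was at -0.0232 with hybridization controls subtracted, and Cdh2 at -0.022 in 1 of the 3 array series. Genes not above both turned to above both in some settings. With the mean over all probe sets of a gene Atp2a2 was at 1.11, Zfpm2 at 0.21 and Atp5if1 at 0.26. After quantile normalization of the 72 arrays Atp2a2 was at 0.22, Hadh at 0.14, Acaa2 at 0.14, Ndufc1 at 0.45 and Cox6a1 at 0.13. Vwf, which did not pass, was at -0.27 with array medians subtracted and at -0.30 with hybridization controls subtracted, and Etfa and Sln, at about 0, also changed sign in some settings. Depth in the sense of reads does not apply to arrays, and dim probe sets near background limit what small differences show. Such levels in marrow and liver also limit the size and order of the largest differences.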
